A study of Drosophila melanogaster with 42 samples.

Results

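Cuticle protein genes were followed through adult life in the head and thorax of male fruit flies (Drosophila melanogaster). The genes were taken by symbol: those that begin with Cpr, Lcp or Ccp and a digit, or with Twdl and a capital letter, with TwdlE left out. The array held 98 spots for 87 such genes, out of 9904 genes that had a spot of their own and 20000 spots in all. Of the 87 genes, 58 were Cpr genes, 16 Tweedle genes, 7 Lcp genes and 6 Ccp84A genes. 11 genes had 2 spots, which were averaged, and 76 had 1. Another 2 spots, 1 annotated to Lcp65Ag1 and Lcp65Ag2 together and 1 to TwdlL and TwdlB together, were left out.

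The insect cuticle is a layer of chitin fibres and proteins that the epidermis secretes, and it forms the exoskeleton, the lens of the eye and the lining of tracheae and foregut. Most Cpr, Lcp and Ccp proteins carry the Rebers and Riddiford sequence, which binds chitin, and Tweedle proteins are a separate family of insect cuticle proteins that helps to set body shape. Many of these genes are known for a burst of expression around a moult, in larvae, pupae or the newly emerged adult, and lie in clusters of neighbouring genes. Adult flies do not moult again.

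Flies heterozygous for the Indy206 allele over Canton-S (Indy206/CS) were compared with matched control heterozygotes (2216/CS), so all flies carried 1 Canton-S set of chromosomes. Indy encodes a plasma membrane transporter of citrate, and the series asks how expression over the life span differs between these genotypes. Each genotype had 21 two-colour arrays, with 2 or 3 in each of the 16 groups of genotype and age, taken at day 5, in steps of 10 days between day 10 and day 50, and in old flies at days 70 and 80. Each sample was RNA of 15 pooled males, labelled with Cy5 and hybridised with a Cy3 reference pool of RNA from control flies of all ages. Values are log2 ratios, read as sample over reference, and every sign below rests on that likely reading. A value of 0 therefore means the level of the pool, which differs from gene to gene, so that levels of different genes were not compared.

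The Indy gene itself ran from -1.62 to -0.67 (median -1.12) in the 21 Indy206 arrays and from -0.49 to 0.11 (median -0.26) in the 21 control arrays, without overlap. Its difference over ages was -0.88 ± 0.064 (SE, limma, adjusted p = 2e-10). Array medians lay between -0.014 and 0.0019, and interquartile ranges between 0.19 and 0.38. Each group held only 2 or 3 arrays. What else limited the precision was not tested, and signal over background was not analysed here.

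Averaged over the arrays, most of the cuticle protein genes lay close to the reference pool. The pool held RNA of control flies of all ages, so a mean near its level is partly built in. Signal over background was not analysed, so a steady level and a weak signal cannot be told apart here. The mean over the 42 arrays lay within 0.2 of 0 in 78 genes (89.7%, against 73.5% of the 19077 units tested, a unit being a gene with its own spots or a spot without a single gene). It was above 0.2 in 7 genes (Cpr62Bb, Cpr66D, Cpr72Ec, TwdlG, Cpr47Ee, Cpr11B and Cpr64Ac) and below -0.2 in 2 (Cpr67Fb and Cpr50Ca). The whole span from the lowest to the highest of the 42 arrays was under 1 on the log2 scale in 67 genes (77.0%, against 60.6% of all units), and its median was 0.75 against 0.86. The median residual SD between arrays of a group was 0.14 in the cuticle genes and 0.16 over all units.

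With age, 8 cuticle protein genes rose and 17 fell. The slope over all 8 ages, as the mean of both genotypes per 10 days, passed an adjusted p of 0.05 in 25 of 87 genes (28.7%), beside 25.2% of all units and 37.5% of the units that were 1 gene, so the share called lay near these backgrounds. Rising calls made up 9.2% of the cuticle genes and 10.1% of all units, and falling calls 19.5% and 15.1%. Among the units that were 1 gene, as the members are, 15.6% rose and 21.9% fell, both above the members' shares. Slopes were below 0 in 71 of the 87 genes (81.6%), against 57.6% of all units and 59.2% of the units that were 1 gene. These downward slopes were shallow: the median was -0.011 per 10 days, against -0.0031 over all units, and 11 of the 17 falling genes had a slope smaller than 0.04 in size. All 25 called genes had the same sign in both genotypes. The calls were made on the mean of the 2 slopes, so this agreement is partly built in. In Indy206 alone 6 rose and 15 fell, where 19.4% of all units were called, and in controls 5 rose and 5 fell, where 8.68% were.

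**Figure D1:**
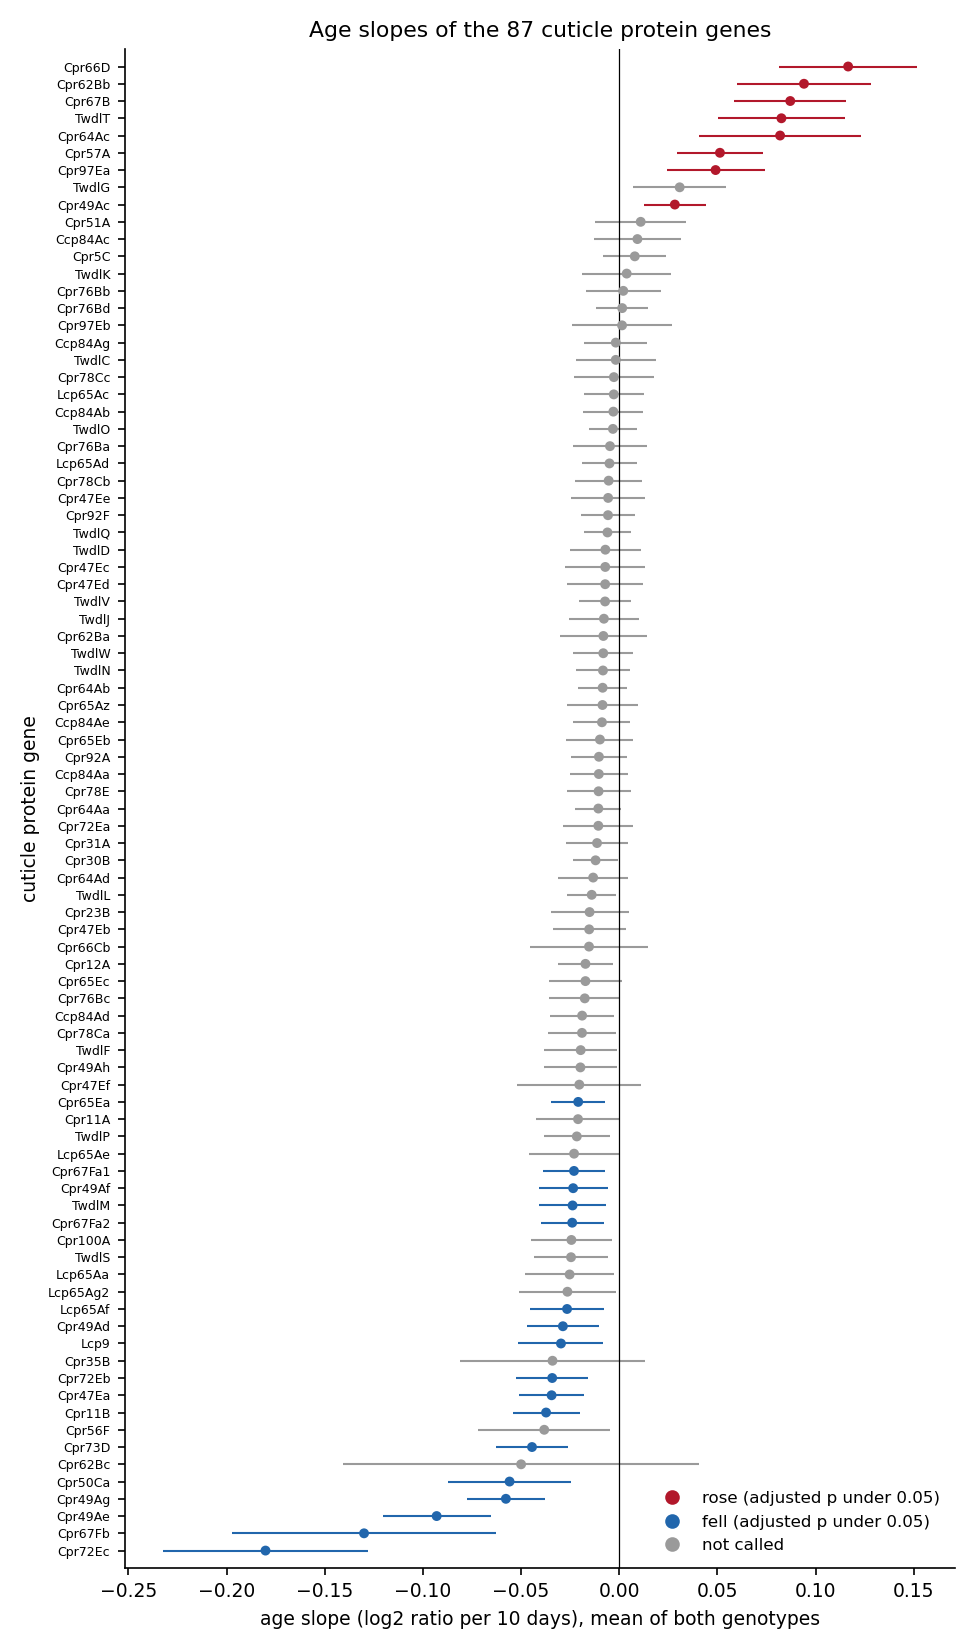
Age slope of each of the 87 cuticle protein genes (log2 ratio per 10 days, mean of both genotypes), with points for estimates and lines for 95% confidence intervals from limma. The 8 rising genes stretch from 0.028 to 0.12 and the 17 falling genes from -0.021 to -0.18, while most genes sit just below 0.

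The 20 genes with a span of 1 or more held 7 of the 8 rises and 4 of the falls, and the 67 genes with a smaller span held 1 rise and 13 falls. Over all units 39.7% of those with a span of 1 or more and 15.7% of the others were called, and a change with age itself widens the span. The steepest changes at both ends involved proteins of the corneal lens, the cuticle that covers each facet of the compound eye. Cpr72Ec and Cpr66D both encode lens proteins, and they moved in opposite directions.

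Cpr72Ec had the steepest fall. In controls its values were 1.09 and 0.39 (day 5), 1.24 and 1.58 (day 10), 0.44, 0.82 and 1.35 (day 20), 2.02, 0.63 and 1.20 (day 30), 0.018 and 0.39 (day 40), 0.41, 0.026 and -0.058 (day 50), -0.52, -0.58 and -0.17 (day 70), then -0.34, 0.21 and -0.097 (day 80). In Indy206 they were 0.94 and 0.88 (day 5), 0.38 and 1.27 (day 10), 0.84 and 0.18 (day 20), 0.70, 0.85 and 1.02 (day 30), -0.39, 0.84 and 0.073 (day 40), 0.40, 0.16 and 0.49 (day 50), -0.44, 0.87 and -0.50 (day 70), then -0.47, -0.23 and -0.47 (day 80). Up to day 30 every array of both genotypes lay above the pool, while at day 80 5 of 6 lay below it, and no array of day 80 reached the lowest array of day 5. The slope was -0.18 ± 0.026 per 10 days (SE, adjusted p = 3.2e-06), a fitted fall of 2.55-fold over 75 days, and from day 10 on it was -0.20. The level did not slide evenly: the mean over both genotypes was 1.07 ± 0.51 (SD, n = 6) at day 30 and 0.18 ± 0.46 (n = 5) at day 40.

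Cpr66D rose. In controls its values were -0.029 and 0.14 (day 5), 0.90 and 0.016 (day 10), 0.36, 0.17 and 0.19 (day 20), 0.32, 0.48 and 0.42 (day 30), 0.57 and 0.51 (day 40), 0.45, 0.63 and 1.42 (day 50), 0.94, 1.46 and 0.97 (day 70), then 1.01, 0.40 and 0.75 (day 80). In Indy206 they were 0.13 and 0.037 (day 5), 0.13 and 0.30 (day 10), 0.34 and 0.35 (day 20), 0.48, 0.16 and 0.92 (day 30), 0.82, 0.44 and 0.52 (day 40), 0.52, 0.69 and 1.07 (day 50), 1.07, 1.47 and 1.12 (day 70), then 1.13, 0.55 and 0.96 (day 80). The 4 arrays of day 5 all lay below the 6 arrays of day 80, and day 70 was the age with the highest mean, 1.17 ± 0.24 (SD, n = 6). The slope was 0.12 ± 0.017 (SE, adjusted p = 5.6e-06), a fitted rise of 1.83-fold over 75 days. Retinin, another lens protein that is no member of these families, fell by 0.30 per 10 days (adjusted p = 1.4e-11). Of 9 measured marker genes of the eye, retinin and the photoreceptor arrestin Arr1 fell and none rose. Of all units 15.1% fell, and of the units that were 1 gene 21.9%, so this count lay near background. The others were not called, with slopes above 0 in trp (0.036) and inaD (0.0086) and below 0 in the rest. The median of the 9 genes, retinin included, ran from 0.39 to 1.21 over the 42 arrays. The mean of that median was 1.07 ± 0.098 (SD, n = 4) at day 5 and 0.62 ± 0.16 (n = 6) at day 80, lower at day 80 like Cpr72Ec and unlike Cpr66D. It did not fall evenly, with 0.71 ± 0.087 (n = 6) at day 50 and 0.83 ± 0.13 (n = 6) at day 70. The part of eye tissue in the lens gene values was not tested. In bulk RNA, fewer cells of a type and less RNA per cell cannot be told apart.

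Steep falls were also found at 49A on chromosome arm 2R. Cpr49Ae, in a cluster there, had its highest mean at day 5, with 0.62 and 0.81 in controls and 0.48 and 0.36 in Indy206. At day 80 it was -0.50, -0.18 and -0.15 in controls and 0.040, -0.040 and -0.20 in Indy206. The day 5 arrays all lay above the day 80 arrays, and the mean had gone by day 20 from 0.57 ± 0.19 (SD, n = 4) to 0.058 ± 0.26 (n = 5). Its slope was -0.093 ± 0.013 (SE, adjusted p = 4.1e-06). Cpr49Ag, of the same cluster, stayed between 0.23 and 0.30 in mean through day 30 and reached -0.14 ± 0.21 (SD, n = 6) at day 70, with a slope of -0.058 ± 0.0097 (adjusted p = 3.7e-05).

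Cpr73D and Cpr11B had their highest means at day 10. Cpr73D had means of 0.13 ± 0.068 (SD, n = 4) at day 5 and 0.42 ± 0.26 (n = 4) at day 10, a difference that missed the threshold (adjusted p = 0.10), and was -0.028 ± 0.13 (n = 6) at day 80. At day 70 its 6 arrays ran from -0.10 to 0.015, all below the 4 arrays of day 5. Its age slope was -0.044 ± 0.0088 (SE, adjusted p = 0.00034) and its slope from day 10 on -0.059. Cpr11B, on the X chromosome, went from 0.55 ± 0.17 (SD, n = 4) at day 10 to 0.042 ± 0.11 (n = 6) at day 80, without overlap between these ages, and its age slope was -0.037 ± 0.0083 (SE, adjusted p = 0.0012).

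**Figure D2:**
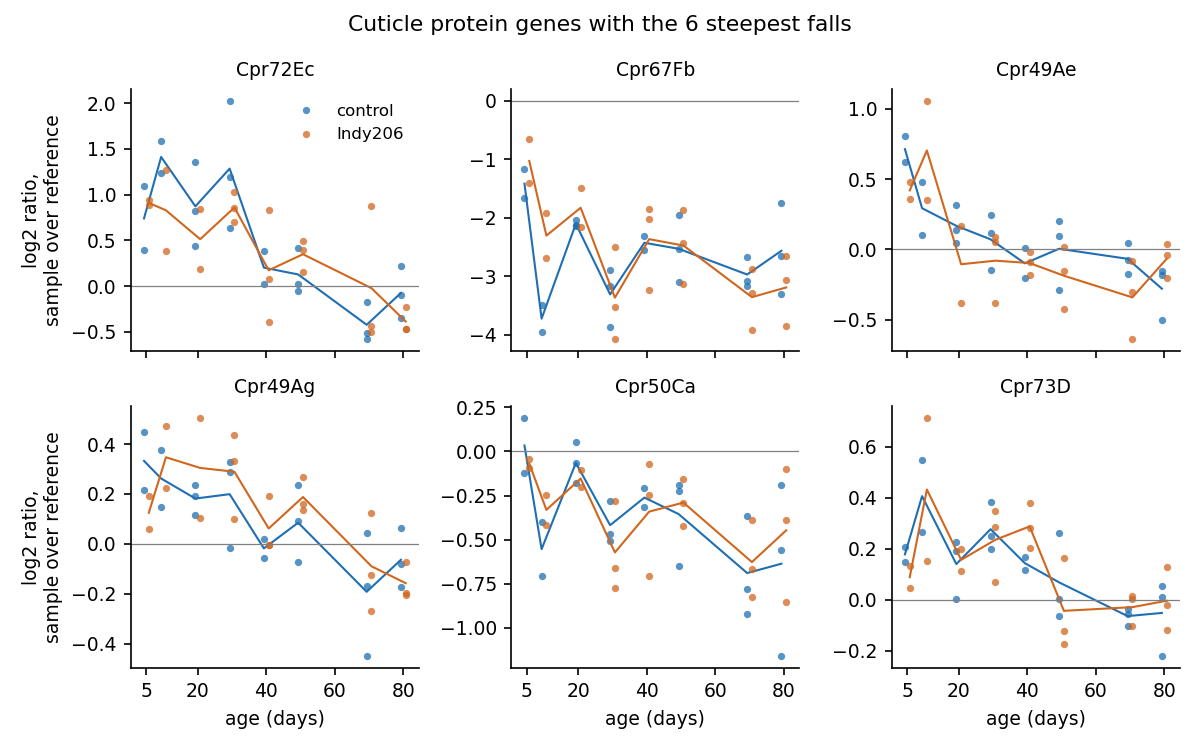
The 6 cuticle protein genes with the steepest falls: log2 ratio of sample over reference (vertical axis) against age in days, with 1 point per array and lines through the group means. Cpr72Ec drops between day 30 and day 40 in both genotypes, Cpr49Ae by day 20, and Cpr67Fb lies below 0 on all 42 arrays.

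A further 10 falling genes had slopes between -0.034 and -0.021 and spans under 1: Cpr47Ea, Cpr72Eb, Lcp9, Cpr49Ad, Lcp65Af, Cpr67Fa2, TwdlM, Cpr49Af, Cpr67Fa1 and Cpr65Ea. Cpr47Ea had the smallest adjusted p among them (-0.034 ± 0.0082, SE, adjusted p = 0.0021) and Cpr49Af the largest (-0.023, adjusted p = 0.044). With 1 array left out at a time Cpr49Af stayed called in 22 of 42 fits, Lcp9 in 28, TwdlM in 30, Lcp65Af in 32 and Cpr67Fa1 in 35. With the replicate number as a block Lcp9 was no longer called. Just outside the threshold lay TwdlG, at 0.031 with an adjusted p of 0.050, and TwdlS, at -0.025 with 0.051. Cpr67Fa1 and Cpr67Fa2 are near copies, and how far their spots share signal was not tested. Of the 11 genes with 2 spots, 4 had 1 spot called and 1 not when spots were tested apart: Cpr65Eb (-0.026 and 0.0067), Cpr92A (-0.023 and 0.0018), Cpr100A (-0.037 and -0.012) and Cpr65Ea (-0.026 and -0.016).

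Among the rising genes, Cpr62Bb had means that followed a U-shaped course, a shape that was not tested. Its change from day 5 to day 10 was not called. In controls its values were 1.14 and 1.07 (day 5), 0.35 and 0.95 (day 10), 0.51, 0.069 and -0.0025 (day 20), 0.58, 0.37 and 0.36 (day 30), 0.84 and 0.46 (day 40), 0.35, 0.48 and 1.06 (day 50), 1.22, 1.88 and 1.12 (day 70), then 1.68, 0.70 and 1.41 (day 80). In Indy206 they were 1.15 and 0.69 (day 5), 0.60 and 0.44 (day 10), 0.20 and 0.24 (day 20), -0.14, -0.067 and 0.46 (day 30), 0.49, 0.50 and 0.18 (day 40), 0.53, 0.48 and 0.58 (day 50), 1.34, 1.12 and 1.21 (day 70), then 1.32, 1.27 and 1.52 (day 80). All arrays of days 5 and 70 lay above all arrays of day 20 in both genotypes. The slope over all ages was 0.094 ± 0.017 (SE, adjusted p = 8.4e-05) and from day 10 on 0.15 ± 0.019 (adjusted p = 5.8e-07), the largest of that contrast among the 87 genes. The straight line over all ages therefore understates its late rise, from 0.20 ± 0.20 (SD, n = 5) at day 20 to 1.32 ± 0.34 (n = 6) at day 80.

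Cpr67B rose, with means near the pool until day 40. At day 5 it was -0.078 and 0.15 in controls and 0.13 and -0.22 in Indy206. At day 70 it was 0.61, 0.62 and 0.33 in controls and 0.53, 0.74 and 0.31 in Indy206, and at day 80 1.18, 0.91 and 0.62 and 0.29, 0.24 and 0.26. Every array of days 70 and 80 lay above every array of day 5, and the slope was 0.087 ± 0.014 (SE, adjusted p = 1.9e-05). At day 80 the 3 control arrays were all above the 3 Indy206 arrays, yet the difference of -0.64 ± 0.18 had an adjusted p of 0.40 (unadjusted 0.0016).

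TwdlT, a Tweedle gene, was lowest at day 5, with values of -0.29 and -0.29 in controls and -0.31 and -0.35 in Indy206. At day 80 it was 0.91, 0.11 and 0.56 in controls and 0.34, 0.29 and 0.33 in Indy206, all above the arrays of day 5. Its slope was 0.083 ± 0.016 (SE, adjusted p = 0.00022), and of the 16 Tweedle genes it was called as rising, TwdlM was called as falling and 14 were not called. Cpr64Ac spread widely in old flies, with 1.69, 0.020 and 0.69 in controls and 0.41, 0.14 and 0.82 in Indy206 at day 80. The highest of these, 1.69, was 0.64 above the next of the 42 arrays, and the slope of 0.082 ± 0.020 (adjusted p = 0.003) became 0.064 without it (adjusted p = 0.0052).

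Cpr57A rose, with a low at day 40. Its 5 arrays of day 40 ran from -0.90 to 0.0083 and its 6 arrays of day 50 from 0.036 to 0.41, without overlap, and the slope over life was 0.051 ± 0.011 (SE, adjusted p = 0.00062). Cpr97Ea rose by 0.049 ± 0.012 per 10 days (adjusted p = 0.0034) and Cpr49Ac by 0.028 ± 0.0077 (adjusted p = 0.007).

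**Figure D3:**
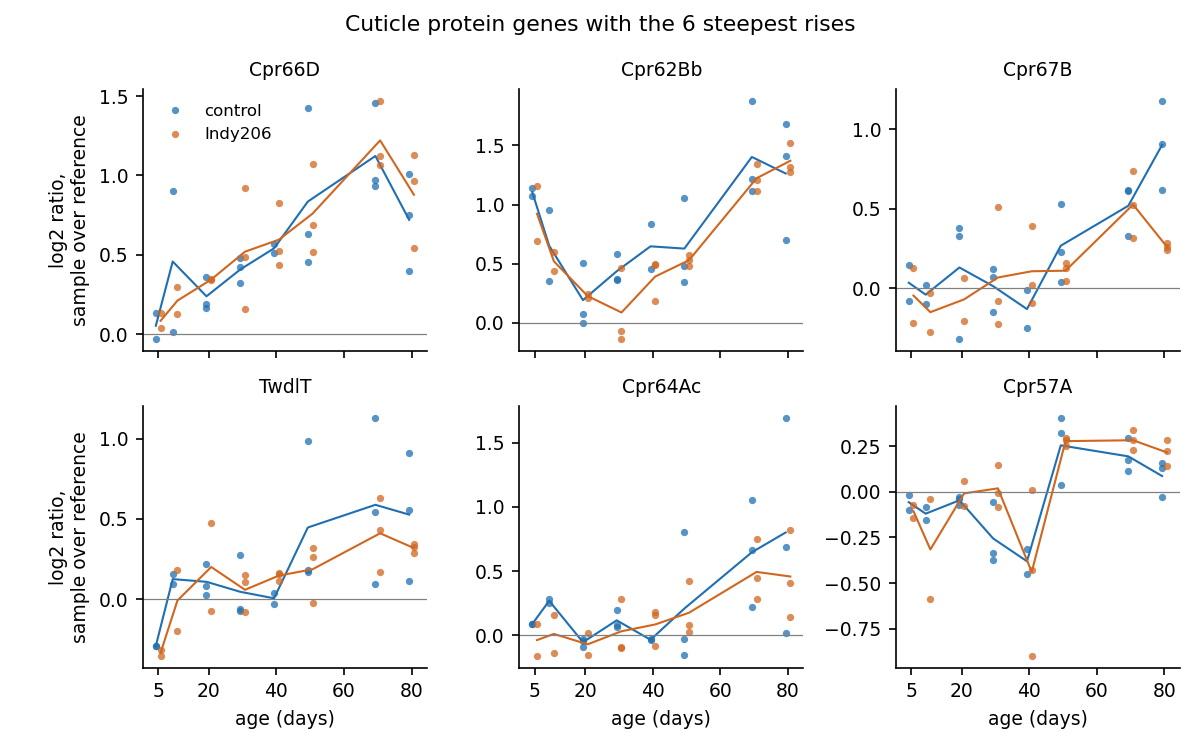
The 6 cuticle protein genes with the steepest rises: log2 ratio of sample over reference (vertical axis) against age in days, with 1 point per array and lines through the group means. Cpr62Bb dips to a mean of 0.20 at day 20 before it climbs, and Cpr67B and Cpr64Ac have their highest means at days 70 and 80.

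Many of the members lie next to each other in clusters. Of 36 pairs of members that are next to each other in the RefSeq gene table, 20 had no call for the age slope, 10 had 1 called gene, 5 had 2 called in the same direction and 1, Cpr49Ac and Cpr49Ad, 2 called in opposite directions. Whether neighbours moved alike was not tested, and the counts below stand beside the 25.2% of all units and 37.5% of 1-gene units called for this slope. The slopes of Cpr72Ea, Cpr72Eb and Cpr72Ec were -0.011, -0.034 and -0.18. Those of Cpr62Ba, Cpr62Bb and Cpr62Bc were -0.0081, 0.094 and -0.050. In the Cpr64A cluster Cpr64Ac, at 0.082, stood beside 3 genes between -0.013 and -0.0085 that were not called. All 3 genes of the Cpr67F cluster fell, and at 49A 4 fell and 1 rose of 6 measured.

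Fewer calls were made in other clusters. None of the 6 Ccp84A genes, of the 4 Cpr76B genes or of the 3 Cpr78C genes was called for the age slope, where Ccp84Ad (-0.019), Cpr76Bc (-0.018) and Cpr78Ca (-0.019) had the smallest p of their clusters. Of 6 Lcp65A genes, which were named as larval cuticle proteins, Lcp65Af fell (-0.027, adjusted p = 0.034). The 6 Cpr47E genes held 1 call (Cpr47Ea) and the 3 Cpr65E genes 1 (Cpr65Ea, -0.021, adjusted p = 0.023).

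From day 10 to day 80, which leaves out the youngest flies, 8 genes rose and 10 fell. These 18 calls were 20.7% of the 87 genes, beside 16.1% of all units (8.2% up and 7.93% down) and 24.3% of the units that were 1 gene. At an unadjusted p under 0.05 there were 33 (37.9%, beside 27.2% of all units). All 8 rising genes of the slope over all ages were called here too, together with 7 of the 17 falling ones, and 10 falling genes were called only with day 5 included, Cpr67Fb and Cpr50Ca among them. Cpr76Bc (-0.038, adjusted p = 0.0073), TwdlL (-0.027, adjusted p = 0.0068) and TwdlS (-0.030, adjusted p = 0.049) were called only here. The TwdlS call held in 13 of 42 fits that left out 1 array, and with the replicate number as a block Cpr97Ea was not called for this slope. In this slope, too, 70 of 87 genes (80.5%) were below 0, against 57.2% of all units.

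Between day 5 and day 10, 2 cuticle protein genes rose and 1 fell, which is 3.45% of the 87 beside 3.67% of all units (0.833% up and 2.84% down). Of the units that were 1 gene 5.65% were called (1.16% up and 4.49% down). The members' share thus lay near that of all units. At an unadjusted p under 0.05 there were 15 (17.2%, beside 19.3%). Cpr97Eb went from -0.23 and -0.33 at day 5 to 0.69 and 0.53 at day 10 in controls and from -0.47 and -0.34 to 0.11 and 0.030 in Indy206. Both ages were apart in both genotypes, the change was 0.69 ± 0.14 (SE, adjusted p = 0.0065), 1.61-fold, and from day 20 on the control arrays lay between -0.20 and 0.44. Its slope over life was 0.0014, so the day 10 peak of the controls is not visible in it. Cpr76Bc went from 0.14 and -0.042 to 0.28 and 0.72 in controls and from -0.15 and 0.13 to 0.44 and 0.53 in Indy206, a change of 0.47 ± 0.10 (adjusted p = 0.0083). The call was lost without Indy206 day 5 replicate 1, control day 5 replicate 3 or control day 10 replicate 2.

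Cpr67Fb fell between these ages, from -1.67 and -1.17 to -3.96 and -3.49 in controls and from -1.41 and -0.65 to -2.69 and -1.92 in Indy206. The day 5 arrays were the highest in each genotype, the change was -1.79 ± 0.37 (SE, adjusted p = 0.0072, 0.062 without Indy206 day 10 replicate 1), and the gene lay below the pool on all 42 arrays, from -4.07 to -0.65. Its later course was uneven, with means of -1.99 ± 0.28 (SD, n = 5) at day 20, -3.34 ± 0.59 (n = 6) at day 30 and -2.88 ± 0.72 (n = 6) at day 80. The slope over all ages was -0.13 ± 0.033 (SE, adjusted p = 0.0039) and from day 10 on -0.043 (adjusted p = 0.52). With quantile normalization between arrays the slope was -0.013 and no longer called, and the early change was -0.65 and still called.

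Markers of male reproductive tissue, which lies in the abdomen, were also lower at days 10 and 30 than at days 5 and 20. The median of 14 measured accessory gland markers lay between -3.82 and -1.11 on the 42 arrays, with means of -1.49 (day 5), -2.97 (day 10), -1.72 (day 20), -3.27 (day 30) and -3.06 (day 80). The median of 14 testis markers lay between -1.88 and -0.11, with -0.19 at day 5 and -0.82 at day 10. Like Cpr67Fb, both medians lay below the pool on all 42 arrays, those of control flies included, though the pool was RNA of control flies. Over both genotypes midgut markers had the same order of ages, with means of their median of -0.22 (day 5), -0.80 (day 10), -0.37 (day 20) and -1.01 (day 30). The genotypes differed in this order. At these ages the means were -0.40, -1.34, -0.42 and -0.74 in controls. In Indy206 they were -0.041, -0.25, -0.29 and -1.28, so that day 10 did not lie below day 20 there. The means for muscle markers were 1.19 (day 5), 0.38 (day 10) and 0.26 (day 20). Of these markers 7 of 14 accessory gland, 3 of 14 testis, 1 of 33 midgut and 6 of 12 muscle genes fell from day 5 to day 10, and none of these lists held a rise. Of all units 2.84% fell, and of the 1-gene units 4.49%, so the midgut count lay near these shares. Cpr50Ca had a like order, with means of -0.017 (day 5), -0.44 (day 10), -0.10 (day 20) and -0.50 (day 30) and a slope of -0.056 ± 0.015 (SE, adjusted p = 0.0078). With the level of the reproductive tissue markers on each array as a covariate, the slope of Cpr67Fb was -0.0034 (adjusted p = 0.97) and that of Cpr50Ca -0.016 (adjusted p = 0.69). With this covariate 4 rising and 5 falling genes stayed called for the age slope, where 11.3% of all units were called, so this count lay near background. Those 9 were Cpr66D, Cpr62Bb, Cpr67B and Cpr57A, which rose, and Cpr72Ec, Cpr49Ae, Cpr49Ag, Cpr73D and Cpr11B, which fell. Of the 16 genes whose call was lost, 9 kept a slope within 1.5 times of the one reported, such as Cpr47Ea (-0.030), Cpr49Ac (0.026), Cpr49Af (-0.022) and Cpr65Ea (-0.024), with SEs 1.32 times as large in the median of the 16. Besides Cpr67Fb and Cpr50Ca, the slopes of Cpr64Ac (0.036), Cpr72Eb (-0.017), Lcp9 (-0.012), Lcp65Af (-0.010) and Cpr67Fa2 (-0.0013) moved further. Between day 5 and day 10 Cpr97Eb was at 0.56 ± 0.18 (SE, adjusted p = 0.51) and Cpr76Bc at 0.42 ± 0.13 (adjusted p = 0.47), close to their reported sizes, while Cpr67Fb was at -0.51 ± 0.30 (adjusted p = 0.91), and 0.152% of all units were called.

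**Figure D4:**
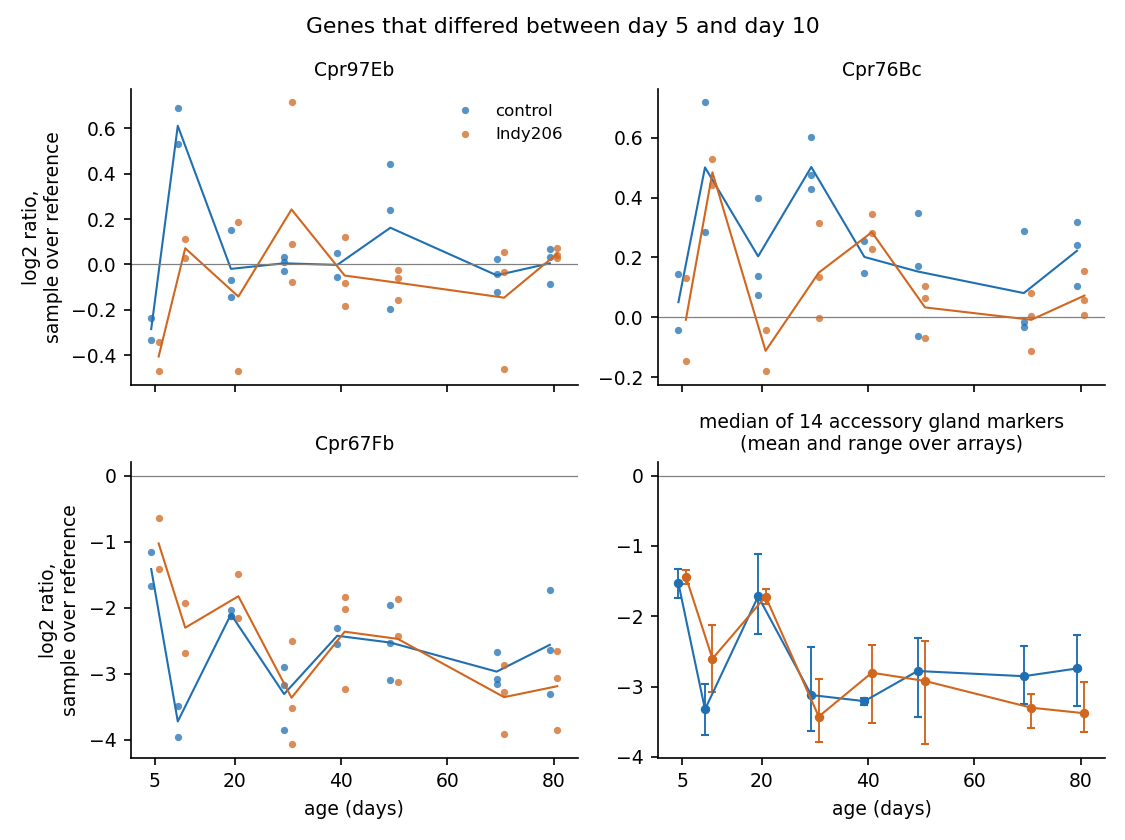
Cpr97Eb, Cpr76Bc and Cpr67Fb (log2 ratio of sample over reference, 1 point per array, lines through group means) and the median of 14 accessory gland markers (mean and range over the arrays of a group) against age in days. Cpr97Eb and Cpr76Bc are higher at day 10 than at day 5 in both genotypes, and Cpr67Fb and the markers both drop at day 10, recover at day 20 and drop again at day 30.

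Single arrays set 2 further values. Cpr62Bc was -4.18 on control day 70 replicate 1, where the other 41 arrays lay at -0.15 or above, and its slope of -0.050 (adjusted p = 0.47) became -0.0035 without that array. Its day 5 arrays, from 0.40 to 0.74, lay above its day 10 arrays, from -0.033 to 0.19, and without that array the early change of -0.48 had an adjusted p of 0.054. Cpr35B was -2.21 on Indy206 day 70 replicate 3, with the next array at -0.36.

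Between the genotypes none of the 87 cuticle protein genes differed at the threshold. Averaged over ages, 0 of 87 genes were called by limma, where 67 of all units were (0.351%, with 0.131% up and 0.22% down), and 2 genes (2.3%, beside 6.59%) had an unadjusted p under 0.05. The differences ran from -0.13 to 0.14, and the 95% interval of a gene reached 0.093 to either side in the median. Cpr76Bc was the gene with the smallest p, at -0.13 ± 0.045 (SE, unadjusted p = 0.0081, adjusted p = 0.44), followed by Cpr64Aa at 0.061 (adjusted p = 0.74) and Cpr72Ea at 0.079 (adjusted p = 0.84). The Cpr76Bc interval ran from -0.22 to -0.036, and the intervals of all 87 genes reached as far as -0.38 and 0.60, so that sizeable differences in single members were not shown to be absent. TwdlE, which is not counted among the 87, differed by -0.32 ± 0.045 (adjusted p = 9.7e-05).

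**Figure D5:**
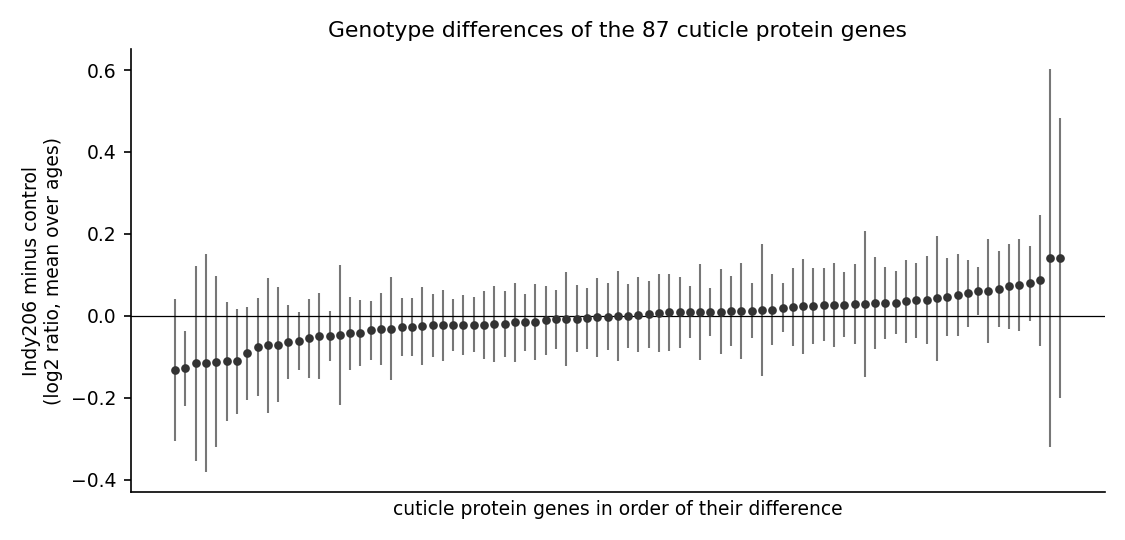
Indy206 minus control as the mean over ages (log2 ratio) for the 87 cuticle protein genes in order of size, with points for estimates and lines for 95% confidence intervals from limma. The differences run from -0.13 to 0.14, and none of them was called.

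At single ages 0 of 87 genes were called at each of the 8 ages, while of all units the share called was 0% (days 5 and 20), 0.00524% (day 10), 0.0472% (day 30), 0.0681% (day 40), 0.0157% (day 50), 0.136% (day 70) and 0.0315% (day 80). Members with an unadjusted p under 0.05 numbered 3 at day 5 (3.45%, beside 3.82% of all units), 5 at day 10 (5.75%, beside 4.55%), 2 at day 20 (2.3%, beside 3.08%) and 3 at day 30 (3.45%, beside 6.52%). In older flies they numbered 6 at day 40 (6.9%, beside 4.71%), 3 at day 50 (3.45%, beside 4.82%), 5 at day 70 (5.75%, beside 9.28%) and 13 at day 80 (14.9%, beside 5.66%). The age slope differed between genotypes in 0 genes (0% of all units), with 9 at an unadjusted p under 0.05 (10.3%, beside 5.58%). Cpr47Ef had the smallest p, with slopes of -0.070 in Indy206 and 0.029 in controls and a difference of -0.10 ± 0.031 (SE, adjusted p = 0.83). Cpr67Fb (-0.18) and Lcp65Ae (-0.062) came next, both with an adjusted p of 0.83. The change from day 5 to day 10 differed in 0 genes (0% of all units), with 3 at an unadjusted p under 0.05 (3.45%, beside 3.27%).

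TwdlL led this last contrast. Its Indy206 values were -0.16 and -0.39 at day 5 and 0.28 and 0.13 at day 10, and its control values 0.031 and 0.12 and -0.039 and -0.061. The arrays of day 10 lay above those of day 5 in Indy206 and below them in controls, with a difference of 0.61 ± 0.14 (SE, unadjusted p = 0.00015) and an adjusted p of 1. Cpr49Ae (0.70) and Cpr31A (0.39) followed, each with an adjusted p of 1.

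Genes that work with these proteins moved in both directions with age. Each count in this paragraph and the next stands beside the 10.1% of all units that rose and the 15.1% that fell. Of 1-gene units 15.6% rose and 21.9% fell. Of 21 other measured cuticle protein genes, 4 rose and 5 fell: besides retinin, Vajk3 (-0.039, adjusted p = 0.00045) and obst-A (-0.043, adjusted p = 0.0028) fell, and Edg91 (0.051, adjusted p = 0.0054) rose. Of 23 genes of chitin synthesis and turnover 10 rose and 4 fell, with a median slope of 0.015. Idgf3 (0.17) and Idgf1 (0.12), secreted proteins related to chitinases, and the chitinase gene Cht8 (0.10) rose, while mmy, whose enzyme makes the sugar donor for chitin, fell (-0.060). Of 22 genes of tanning and pigmentation 6 rose and 7 fell. The genes yellow-d (0.076) and yellow-b (0.12) rose, and speck, an arylalkylamine acetyltransferase, fell (-0.11), as did PPO2, a prophenoloxidase of blood cells (-0.16).

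Of 21 genes of the ecdysone response and of moulting control none rose and 2 fell, with a median slope of -0.0076. They were Hr3, a nuclear receptor induced by ecdysone (-0.023, adjusted p = 0.04), and Cyp18a1, whose enzyme inactivates ecdysteroids (-0.038, adjusted p = 0.043). Among 11 measured markers of the epidermis, the tissue that secretes cuticle, 3 rose and 5 fell, and their median on the 42 arrays ran from -0.057 to 0.17. For the same slope, 24 of 33 midgut markers, 7 of 14 accessory gland markers, 4 of 14 testis markers and 2 of 8 fat body markers fell and none rose, and of 12 muscle markers 2 rose and 7 fell. The part of these tissues in the cuticle gene values was not tested beyond the covariate for reproductive tissue.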

How the data were processed

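RNA of head and thorax was measured on 42 two-colour arrays, 21 of each genotype at 8 ages. Per the labels' protocols, 15 males per sample were extracted in Trizol and the RNA was amplified in a linear round with T7 polymerase. The replicates are samples of separate flies as far as the labels say. The deposited values are log2 ratios, which the authors made with limma per the submitters' processing notes. For background correction, normalization within arrays, spot filters, log base and direction, the steps were not given in the sources used here. Base 2 and Cy5 over Cy3 were taken as likely. No dye swap is listed in the labels, so a dye effect stays in a level and cancels between groups. The values were not normalized again.

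Spots were named from the platform annotation (10827 with 1 gene, 227 with several, 8946 with none), all 98 member spots matched the RefSeq gene table of Release 6 plus ISO1 MT, and spots of 1 gene were averaged, which gave 19077 units. A model of 16 group means (26 residual degrees of freedom) was fitted in R 4.3.3 with limma 3.58.1 (lmFit, eBayes), after tests on simulated data. P-values were adjusted by Benjamini-Hochberg over all units within each contrast and called under 0.05. Tables and figures were made in Python 3.11.15 with pandas 2.3.3 and matplotlib 3.10.9.

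The members and all 11 gene lists were chosen with earlier results of these data known. Named are the called members of each contrast (above 12, the 6 highest and 6 lowest), the 3 smallest p where none was called, the smallest p of each cluster of 3 or more, and up to 4 genes of each list, with further members named after their values were seen. Alternatives were quantile and MAD scaling, array weights, a robust prior, a replicate block, units and spots taken otherwise, a marker covariate and leaving out arrays. Protein and promoter sequences were not used here.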

Additional observations from a re-analysis of the deposited data

How the results depend on the processing

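The genotype contrasts kept 0 calls under every alternative run except quantile normalization, where 1 call appeared at a single age, TwdlL at day 5 (-0.55, adjusted p = 0.043, against -0.35 and 0.51 as reported). With the level of 28 reproductive tissue markers as a covariate, rising genes went from 8 to 4 and falling genes from 17 to 5 for the age slope, where 11.3% of all units were called, and from 2 to 0 and from 1 to 0 for day 10 minus day 5, where 0.152% were. Of the 16 age calls lost, 9 kept a slope within 1.5 times of the reported one with wider errors, as did the early changes of Cpr97Eb and Cpr76Bc. The slopes of the other 7 moved further. Whether the changes went with the markers was not tested. For day 10 to day 80 the covariate left 7 rising and 8 falling, where 15.8% of all units were called. Quantile normalization kept 22 of the 25 age slope calls and lost those of Cpr49Af, Cpr67Fb and Lcp65Af. Day 10 minus day 5 gave 4 higher genes with quantile normalization (Ccp84Ac and Cpr31A added) and 4 with array quality weights (Cpr11B and TwdlK added). The cause of these moves was not tested. Leaving out 1 array at a time gave 8 to 9 rising and 11 to 19 falling genes for the age slope (11 without control day 5 replicate 3), 1 to 4 higher and 0 to 1 lower for day 10 minus day 5 (4 without Indy206 day 10 replicate 2), and 6 to 8 rising and 6 to 14 falling from day 10 to day 80 (6 falling without control day 10 replicate 2). No called direction was reversed under any alternative. Deviations of arrays from their group means were compared between arrays of different groups. Their median correlation was 0.028 for pairs with the same replicate number and -0.018 for other pairs. Of the 280 same-numbered pairs, 107 correlated above 0.1. Whether replicate numbers mark a batch was not tested. A replicate block gave 8 rising and 20 falling genes for the age slope, 3 higher and 1 lower for day 10 minus day 5, 7 rising and 11 falling from day 10 on, and 0 in each genotype contrast; Lcp9 lost its age slope call and Cpr97Ea its later one. Without the 2 arrays least like the others of their age, a choice made after seeing the data, 8 rose and 18 fell. Groups of 2 or 3 arrays limit what single-age contrasts can show.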
